A study of Mus musculus with 8 samples.

Results

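The libraries described here are replicates 3 and 4 of an ATAC-seq study of microglia, chosen by their replicate numbers. They are 4 of the 8 libraries of the series, 2 from control (Ctrl) mice and 2 from mice labelled FGR, for growth restricted in the womb. All came from the hippocampus at 3 weeks of age, and all mice carried a heterozygous Tmem119-tdTomato reporter, which makes microglia fluoresce. How growth was restricted, the sex of the mice and the number of animals behind a library were not stated in the labels, so p-values measure only the spread between these libraries. The comparison asks which stretches of microglial chromatin were open in FGR and not in Ctrl, and the reverse. With 2 libraries against 2, the exact permutation test of a single value has 6 assignments and cannot fall below p = 0.333, so no such value could pass a threshold of 0.05.

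Microglia are the resident macrophages of the brain. They survey the tissue, engulf dying cells and synapses, and depend on the growth factor receptor gene Csf1r and on transcription factors such as PU.1, Sall1 and Irf8. Promoters of active genes are open in many cell types, whereas enhancers, which mostly lie inside genes or between them, differ far more between cell types and states. ATAC-seq cuts open DNA with a transposase, and an excess of cuts over the local background is called a peak.

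Microglial identity genes were open in both groups. Tmem119, a microglial surface marker on chromosome 5 (113793729 to 113800396), had a peak within 1 kb of a gene end in all 4 libraries. It stood at the 79.7th and 44.6th percentiles of the deposited fold in Ctrl 3 and 4, and at the 85.6th and 82.6th in FGR 3 and 4. The fractalkine receptor gene Cx3cr1 likewise had a gene-end peak in every library, as did Sall1, Spi1, which encodes PU.1, Irf8, Csf1r, the lipid receptor gene Trem2 and the engulfment receptor gene Mertk. The Csf1r peaks were at the edge of detection, at the 0.181st and 4.35th percentiles in Ctrl and the 3.45th and 0.427th in FGR. They did not all lie at the same end of the gene, and 1 library per group kept a peak with −log10 q of at least 5. With equal-length lists Csf1r kept a peak in 1 FGR library. Spi1 was at the 1.47th percentile in FGR 4. At the purinergic receptor gene P2ry12 a gene-end peak was called in FGR 4 alone, and at the calcium-binding protein gene Aif1 in none. Of 20 homeostatic microglia genes, 13 had a gene-end peak in all 4 libraries (65.0%), as did 12 of 16 microglial transcription factor genes (75%), beside 39.9% of all 21883 protein-coding genes. Markers of other cells mostly lacked a gene-end peak. None of 11 neuron, 8 astrocyte, 9 oligodendrocyte lineage, 8 endothelial and mural, 9 monocyte and neutrophil or 8 lymphocyte markers had a gene-end peak in all 4 libraries, and of 8 border macrophage markers only Cbr2 did. Flt1 and Il7r had such a peak in all but Ctrl 3, Csf3r in all but Ctrl 4, and Myrf in both Ctrl libraries. A missing gene-end peak does not mean closed chromatin. Within 20 kb of the astrocyte marker Slc1a3, which had none, lay 5 and 4 peaks in Ctrl and 6 and 7 in FGR.

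More peaks were called in FGR, and nearly all of the excess lay away from gene ends. Ctrl 3 and 4 had 22705 and 24195 peaks, and FGR 3 and 4 had 29501 and 26246. Both FGR lists were longer than both Ctrl lists, by 4423.5 peaks on average (exact permutation p = 0.333), although the distance between FGR 4 and Ctrl 4 was smaller than that between the FGR libraries. Peaks within 1 kb of a gene end numbered 9899 and 10404 in Ctrl and 10578 and 10127 in FGR, so the groups overlapped (exact permutation p = 0.667). Peaks farther away numbered 12757 and 13745 in Ctrl against 18877 and 16064 in FGR (exact permutation p = 0.333). Gene ends accordingly held 43.7% and 43.1% of the Ctrl peaks and 35.9% and 38.7% of the FGR peaks, a difference of -6.10 percentage points (exact permutation p = 0.333). With equal-length lists it was -3.16 percentage points (exact permutation p = 0.333). The background coverage recovered from each list was 4.04 and 6.05 extended reads per base in Ctrl 3 and 4 and 4.82 and 4.60 in FGR 3 and 4, so the FGR values lay between those of Ctrl. Covered length also overlapped, at 9.996 and 11.5 Mb in Ctrl and 13.1 and 11.4 Mb in FGR.

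**Figure D1:**
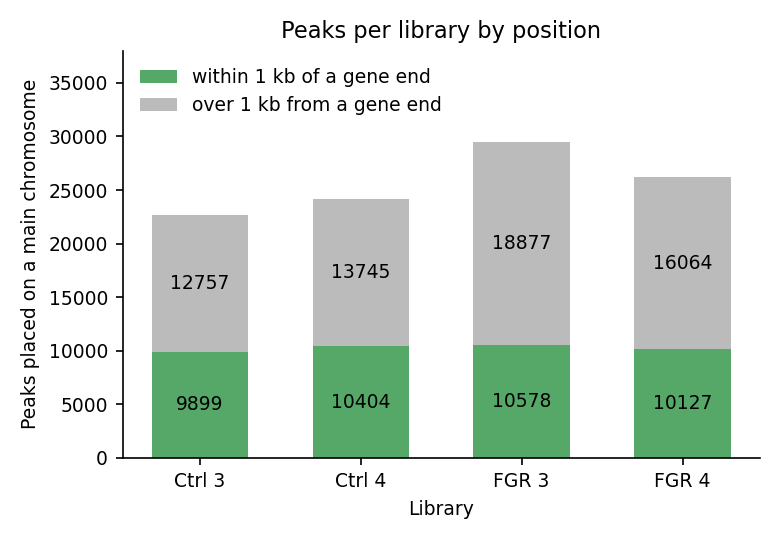
Peaks placed on a main chromosome in each of the 4 libraries, stacked as those within 1 kb of an annotated gene end (green) and those farther away (grey). The green parts run from 9899 to 10578 in both groups, while the grey parts are 12757 and 13745 in Ctrl and 18877 and 16064 in FGR.

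Merging the 4 lists wherever peaks shared at least 1 bp gave 44718 regions. Of these, 13772 (30.8%) were called in all 4 libraries and 21482 (48.0%) in a single library. A region called in both FGR libraries and in neither Ctrl library is termed FGR-only here, and the opposite kind Ctrl-only. There were 1620 FGR-only regions, or 3.62% of all regions, and 659 Ctrl-only regions, or 1.47%. The surplus of 961 FGR-only regions was the most extreme of the 6 assignments of the libraries (exact permutation p = 0.333). Both kinds were weak peaks in their own lists. FGR-only regions had a median percentile of 36.4 in FGR 3 and 32.1 in FGR 4, and Ctrl-only regions 29.4 in Ctrl 3 and 31.8 in Ctrl 4, while regions called in all 4 had medians of 67.9 to 74.8. A weak peak can cross the calling threshold in a library and miss it in another, so presence is not a measure of how much openness differs.

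The 2 kinds of region differed in position. FGR-only regions comprised 233 at gene ends, 832 inside genes and 555 between genes, so that 85.6% lay over 1 kb from a gene end. Ctrl-only regions comprised 214 at gene ends, 241 inside genes and 204 between genes, with 67.5% away from gene ends. For comparison, 71.1% of all regions lay away from gene ends. The balance depended on list length. When each list was limited to its 22705 strongest peaks by −log10 q, there were 1013 FGR-only and 894 Ctrl-only regions, and the FGR share of separated regions went from 71.1% to 53.1%. Gene ends then held 112 FGR-only and 313 Ctrl-only regions, whereas the insides of genes still held more FGR-only (554) than Ctrl-only (309) regions, and intergenic DNA 347 and 272. Of the 1620 FGR-only regions, 967 (59.7%) overlapped an FGR-only region of the equal-length lists, and of the 659 Ctrl-only regions 607 (92.1%) did so for Ctrl.

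**Figure D2:**
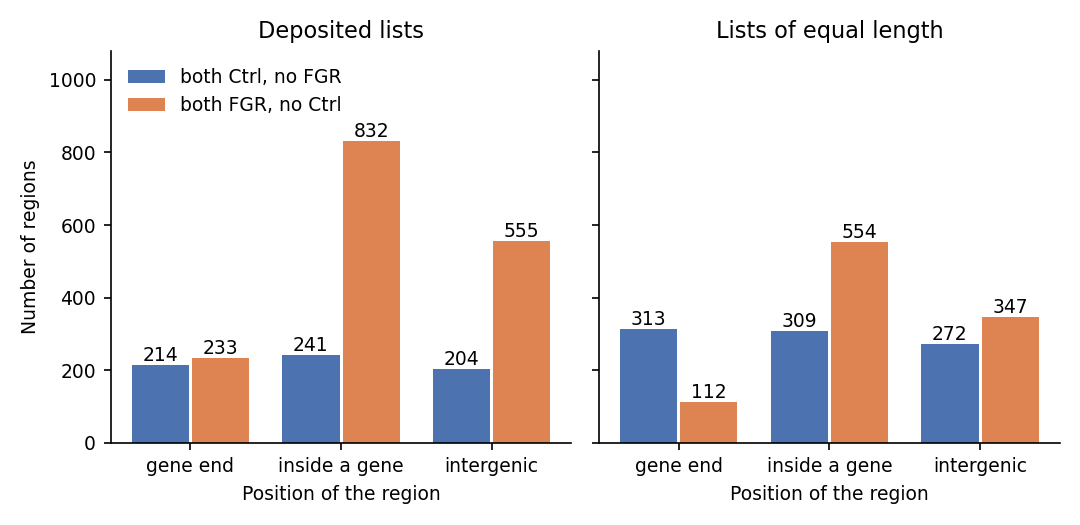
Number of regions called in both libraries of a group and neither of the other, by position, with the deposited lists (left) and with each list limited to its 22705 strongest peaks (right). Inside genes the FGR-only count is the higher in both panels (832 against 241, and 554 against 309), while at gene ends it is 233 against 214 in the deposited lists and 112 against 313 in equal-length lists.

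At the ends of genes the 2 directions were balanced. A gene-end peak was called in both FGR and no Ctrl libraries at 161 of 21883 genes (0.736%), and in both Ctrl and no FGR libraries at 160 (0.731%). With equal-length lists the counts were 85 and 261, so the FGR share went from 50.2% to 24.6%. For 123 of the 161 FGR genes and 123 of the 160 Ctrl genes, both peaks fell in the same separated region. For 11 and 9 genes respectively, the region was also called in the other group just outside the window, and the separation reflects only the window's edge. Among 441 listed genes, 7 were FGR-only and 7 Ctrl-only.

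The FGR-only listed genes included several surface receptors of myeloid cells. Fcgr2b, the inhibitory receptor for IgG on chromosome 1, had a peak at 170975856 to 170976262 that covered its start site. Its summit pileup, the number of extended reads at the highest point, was 23 in FGR 3 and 24 in FGR 4, at the 34.8th and 40.2nd percentiles. The activating IgG receptor gene Fcgr4, on the same chromosome, had pileups of 23 and 22, but the peaks of the FGR libraries lay in different regions near its start. Itgam and Itgax, neighbours on chromosome 7, encode the alpha chains of complement receptors 3 and 4. The Itgam peak (128062450 to 128062763) covered the start site, with pileups of 32 and 29 at the 25.1st and 9.93rd percentiles. The Itgax peak (128128918 to 128129297) had pileups of 19 and 29 at the 3.44th and 41.3rd percentiles. These are weak peaks, and with −log10 q of at least 5 the Fcgr2b, Itgam and Itgax peaks were each called in a single FGR library and no Ctrl library, and that of Fcgr4 in none.

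The other FGR-only listed genes were the adenosine receptor gene Adora3, with pileups of 29 and 39 at its start site, the MHC class II gene H2-Eb1, with 23 and 28 in different regions of the gene, and Tyms, which makes thymidylate for DNA synthesis. Tyms had pileups of 22 and 21 at the 58.6th and 52.3rd percentiles. Of these 7, Tyms alone kept both FGR peaks with −log10 q of at least 5. Both FGR peaks were kept in equal-length lists at Fcgr2b, Fcgr4, H2-Eb1, Itgam and Tyms, and a single FGR peak at Adora3 and Itgax. With a window of 2 kb the groups no longer differed in presence at Adora3 and Itgam was no longer fully separated, and with 500 bp Fcgr4 and H2-Eb1 were no longer fully separated.

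The Ctrl-only listed genes described here were of mixed function. Ptgs2, the inducible cyclooxygenase gene on chromosome 1, had a peak 81 bp from its start site (150099637 to 150099950), with pileups of 21 in Ctrl 3 and 20 in Ctrl 4 at the 56.4th and 24.2nd percentiles. Xaf1, an interferon-induced gene on chromosome 11, had pileups of 17 and 20 over its start site (72301492 to 72301903). Ltbp1, whose product binds latent TGF-beta, had pileups of 21 and 24. Tap2, a subunit of the peptide transporter of MHC class I, had 23 and 30. Myrf, a myelin regulator and oligodendrocyte marker, had 38 and 40. The glycolytic gene Aldoa was also counted, but its start-site window was called in all 4 libraries. With −log10 q of at least 5, Myrf and Aldoa kept both Ctrl peaks, Ptgs2 and Ltbp1 kept 1, and Tap2 and Xaf1 had none. In equal-length lists all of these genes kept both.

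The promoters of listed genes with a separated peak are shown because the presence calls there carry the gene-level comparison. Each sequence is the 250 bases before the annotated start, read 5′ to 3′ on the strand of the gene, from RefSeq sequence of GRCm38.p6. Capitals mark the ETS core bound by PU.1 (GAGGAAG, either strand) and the AP-1 site (TGANTCA, either strand). The coordinates are chr7:128062390-128062639 (plus strand) for Itgam, chr3:105904171-105904420 (plus) for Adora3, chr1:170976072-170976321 (minus) for Fcgr2b, chr1:150099781-150100030 (plus) for Ptgs2 and chr11:72301379-72301628 (plus) for Xaf1.
Itgam: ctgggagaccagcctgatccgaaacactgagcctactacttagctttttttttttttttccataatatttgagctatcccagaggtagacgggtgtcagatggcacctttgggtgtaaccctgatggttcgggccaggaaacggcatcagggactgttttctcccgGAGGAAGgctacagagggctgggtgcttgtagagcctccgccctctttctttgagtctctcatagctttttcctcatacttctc
Adora3: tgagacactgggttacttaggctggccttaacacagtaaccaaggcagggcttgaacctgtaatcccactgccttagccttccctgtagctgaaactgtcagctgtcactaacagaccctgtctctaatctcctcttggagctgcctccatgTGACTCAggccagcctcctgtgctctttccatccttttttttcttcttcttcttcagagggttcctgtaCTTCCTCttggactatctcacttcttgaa
Fcgr2b: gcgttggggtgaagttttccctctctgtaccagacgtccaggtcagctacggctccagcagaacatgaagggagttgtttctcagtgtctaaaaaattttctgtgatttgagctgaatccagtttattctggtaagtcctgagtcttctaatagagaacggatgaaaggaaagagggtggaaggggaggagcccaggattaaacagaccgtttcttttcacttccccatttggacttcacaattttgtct
Ptgs2: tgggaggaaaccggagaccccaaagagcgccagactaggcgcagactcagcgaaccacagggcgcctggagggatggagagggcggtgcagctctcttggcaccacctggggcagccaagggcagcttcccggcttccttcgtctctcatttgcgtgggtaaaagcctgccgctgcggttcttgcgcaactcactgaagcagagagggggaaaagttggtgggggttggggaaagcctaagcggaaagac
Xaf1: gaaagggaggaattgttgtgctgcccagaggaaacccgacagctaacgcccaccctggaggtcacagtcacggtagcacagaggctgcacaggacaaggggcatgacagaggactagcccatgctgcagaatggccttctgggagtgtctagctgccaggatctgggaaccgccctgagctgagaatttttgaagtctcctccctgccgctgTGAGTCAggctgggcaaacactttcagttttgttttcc

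Itgam held 1 ETS core, Adora3 an ETS core and an AP-1 site, and Xaf1 an AP-1 site, whereas these letters were not in the Fcgr2b and Ptgs2 windows. Over all 21262 such windows, 10.3% held the ETS core and 6.13% the AP-1 site. The windows of 135 starts (0.635%) were FGR-only, and those of 163 starts (0.767%) were Ctrl-only. The ETS core was in 20 of the 135 (14.8%) and 20 of the 163 (12.3%), and the AP-1 site in 8 (5.93%) and 5 (3.07%). Windows called in all 4 libraries held the ETS core in 10.3% and the AP-1 site in 2.99%. Median CpG numbers were 11 in the FGR-only windows, 16 in the Ctrl-only windows, 19 in windows called in all 4 and 3 in windows called in none.

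Outside the lists, the strongest FGR-only gene-end peaks were ordered by the lower of their 2 percentiles. Mpp1, which encodes a membrane scaffold protein, had pileups of 33 and 29 at the 89.2nd and 81.8th percentiles. Actr6, which encodes an actin-related protein of chromatin remodelling, had 26 in both. They were joined by the zinc finger gene Zfp54 (26 and 33), Pqlc3 (28 and 29) and Prelid3a (31 and 37). Mrpl18, Adam5 and Apoa5 ranked with them, but their regions were also called in Ctrl. The strongest Ctrl-only peaks were at Trp53rka, a homologue of a p53-regulating kinase gene (37 and 35, at the 84.7th and 76.9th percentiles), at Fastkd2, a mitochondrial RNA-binding protein gene, and Mdh1b, which share a peak (24 and 33), at Dynlt3, a dynein light chain gene (30 and 28), and at the kinetochore gene Spc24 (29 and 45). Polg, Spindoc and Poglut3 ranked with them, but their regions were also called in FGR. All 5 FGR-only and 5 Ctrl-only genes whose regions were absent from the other group kept both peaks in equal-length lists. With a gene-end window of 500 bp or of 2 kb, Prelid3a was no longer separated.

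Loci of microglial transcription factors and homeostatic genes held FGR-only regions at a higher share than all regions did, as did several other lists. A locus here is a gene with 20 kb on each side. An FGR-only region lay in 1850 of 21883 loci (8.45%) and a Ctrl-only region in 984 (4.5%). Among the 9199 loci that averaged 2 or more peaks, the shares were 16.1% and 8.27%. Of the 16 loci of microglial transcription factors, 8 held an FGR-only region (50%) and 0 a Ctrl-only region. Since loci rich in peaks offer more chances for either kind, the regions themselves were also counted. These loci held 123 regions, of which 12 were FGR-only (9.76%) and 0 Ctrl-only, beside 3.62% and 1.47% of all regions. In equal-length lists they held 8 of 112 (7.14%) and 0, beside 2.73% and 2.41%. The lists were chosen with results of these libraries known, so the counts are descriptions, and they were not tested.

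The transcription factor loci, like other list members named from here on outside the naming rule, were picked after their values were seen. Mef2a and Mef2c, factors of the myocyte enhancer family that act in microglia, each held 2 FGR-only regions inside the gene and had no gene-end peak in any library. Of the Mef2a regions, 1 was at the 3.94th and 2.7th percentiles, at the edge of detection, and the other at the 45.1st and 54.7th. Those of Mef2c were at the 43.3rd and 25.5th and at the 46.5th and 40.3rd. The Mef2c locus held 8 and 5 peaks in Ctrl and 9 in each FGR library, and that of Mef2a 4 and 3 against 7 and 6. Runx1, a haematopoietic factor, held 2 FGR-only regions inside the gene, and its stronger one, 111946 bp from a gene end, had pileups of 30 and 38. Irf8, Cebpa and Fli1 held 1 each. At Irf8 the locus had 3 and 2 peaks in Ctrl and 5 in each FGR library.

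Homeostatic microglia genes had a similar pattern, with 11 of 118 regions FGR-only (9.32%) and 1 Ctrl-only (0.847%). In equal-length lists these were 7 of 110 (6.36%) and 3 (2.73%). Cst3, which encodes the protease inhibitor cystatin C, held 2 FGR-only regions, the stronger at the 79.8th and 65.8th percentiles with pileups of 28 and 29. Its locus had 1 peak in each Ctrl library and 3 in each FGR library. Cx3cr1, Tmem119, Mertk, Gpr34, Selplg and Gas6, the Mertk ligand gene, held 1 each. The Selplg region lay inside the nearby gene Coro1c, and the Gpr34 region inside Cask. The Tmem119 region, inside the neighbouring gene Iscu, was at the 0.302nd and 2.94th percentiles and thus at the edge of detection. Disease-associated microglia genes held 3 FGR-only regions among 68 (4.41%) and 0 Ctrl-only, and with equal-length lists 1 of 59 (1.69%), below the 2.73% over all regions.

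Engulfment and Rac signalling genes held 20 FGR-only (8.97%) and 3 Ctrl-only regions (1.35%) among 223, and 15 (7.98%) and 5 (2.66%) among 188 with equal-length lists. Besides Elmo1, the Rac GTPase-activating protein gene Chn2 held 3 FGR-only and 1 Ctrl-only region, and the exchange factor genes Dock4 and Dock8 held 2 FGR-only regions each. The Dock4 regions lay inside the adjacent gene Zfp277. Chn2 had 8 and 10 peaks in Ctrl and 16 and 13 in FGR. At the exchange factor gene Vav1 the direction was opposite, with 1 Ctrl-only region and 8 and 11 peaks in Ctrl against 6 and 8 in FGR.

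Glucocorticoid response genes held 6 FGR-only (7.79%) and 0 Ctrl-only regions among 77, and 6 (8.57%) and 2 (2.86%) among 70 with equal-length lists. They lay at Sgk1, a kinase gene induced by glucocorticoids, and at the nuclear receptor coactivator gene Ncoa2, with 2 each, and at Fkbp5, a co-chaperone of the glucocorticoid receptor, and Cebpd, with 1 each. The Sgk1 locus had 3 and 4 peaks in Ctrl and 7 in each FGR library, and the Ncoa2 locus 4 and 3 against 8 and 6. The FGR-only regions of Ncoa2 had pileups of 26 and 24 in the first and 29 and 31 in the second.

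With the deposited lists, most other pathway lists also held more FGR-only than Ctrl-only regions. Purinergic and chemokine receptor loci held 7 (7.61%) and 1 (1.09%) of 92, complement and synapse engulfment loci 5 (7.58%) and 2 (3.03%) of 66, and insulin, IGF1 and mTOR loci 9 (6.82%) and 1 (0.758%) of 132. With equal-length lists these became 5 (6.02%) and 2 (2.41%) of 83, 2 of each among 64, and 5 (4.59%) and 3 (2.75%) of 109. Cell cycle (6.67% and 3.33%), cholesterol and lipid (6.60% and 3.77%), interferon response (5.26% and 1.32%) and lysosome loci (4.92% and 0.820%) also held FGR-only regions above the 3.62% over all regions in the deposited lists. With equal-length lists cell cycle loci reversed, with 2 FGR-only (4.0%) and 3 Ctrl-only (6.0%) of 50, and cholesterol and lipid loci were even, with 4 of each among 93. Interferon response loci then held 4 (5.80%) and 1 (1.45%) of 69, and lysosome loci 4 (3.67%) and 1 (0.917%) of 109. TGF-beta signalling (4% and 2%), Fc receptor and ITAM signalling (3.6% and 0.719%) and hypoxia and glycolysis loci (2.65% and 0.885%) were near or below the FGR share.

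The balance was reversed or even in a few lists. Immediate early and AP-1 genes held 3 FGR-only (1.84%) and 5 Ctrl-only (3.07%) of 163 regions, NF-κB and inflammatory genes 2 of each among 105 (1.90%), and oxidative phosphorylation genes 2 (3.08%) and 3 (4.62%) of 65. In equal-length lists the oxidative phosphorylation loci held 1 (1.61%) and 5 (8.06%) of 62. Antigen presentation genes held 1 FGR-only (1.33%) and 2 Ctrl-only regions (2.67%) among 75. A Ctrl-only region lay in 5 of 16 loci (31.2%), beside 8.27% of all loci averaging 2 or more peaks. Only 2 Ctrl-only regions lay behind these 5, since Tap1, Tap2, Psmb8 and Psmb9 share the region at Tap2. Loci of neuron, endothelial and mural, border macrophage and lymphocyte markers held no separated region of either kind among 33, 24, 26 and 19 regions. Oligodendrocyte lineage marker loci held 2 of each kind among 29 (6.90%), astrocyte marker loci 1 FGR-only region among 27 (3.70%) and monocyte and neutrophil marker loci 1 among 14 (7.14%).

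**Figure D3:**
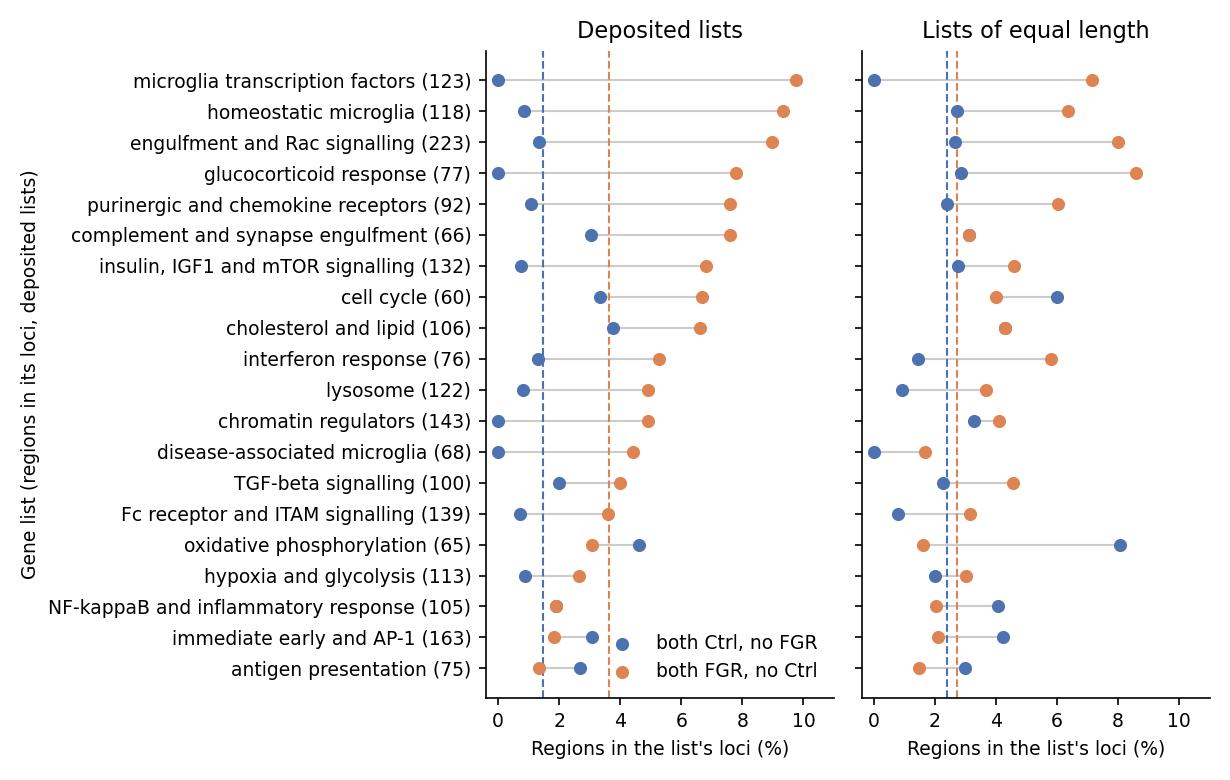
Share of the regions in each list's loci that were FGR-only (orange) or Ctrl-only (blue), for the 20 microglia and pathway lists, with deposited lists (left) and equal-length lists (right). Dashed lines give the shares over all regions (3.62% and 1.47% on the left, 2.73% and 2.41% on the right), and microglial transcription factors reach 9.76% and 7.14% for FGR with 0 for Ctrl.

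The locus with the most FGR-only regions was Elmo1, whose product works with Dock proteins to activate Rac during engulfment and migration. Elmo1 spans chromosome 13 from 20090507 to 20608353 on the plus strand. At 517.8 kb it is a long gene, and the order by count does not allow for the length of a locus or its number of regions. Over all regions inside genes, 4.64% were FGR-only. Its locus held 8 and 9 peaks in Ctrl 3 and 4 and 18 in each FGR library. All 5 FGR-only regions lay inside the gene, at 37145, 49588, 61219, 116594 and 221101 bp from its start. The strongest of them, at 20140095 to 20140375, had pileups of 35 and 34 over a local background of 5.66 and 5.86 extended reads per base, at the 85.2nd and 78th percentiles. The start of Elmo1 itself was open in all 4 libraries, with pileups of 37 and 40 in Ctrl and 42 and 39 in FGR. Per 10000 peaks of the library the difference in the number of peaks was 0.79 ± 0.18 on the log2 scale (SE, limma adjusted p = 0.254). The difference was 0.76 without Ctrl 3 and 0.83 without Ctrl 4. In these fits the lone Ctrl library is assumed to vary like the FGR pair, whose counts were tied at 18. Elmo1 was also named for its FGR-only regions, whose peaks enter these counts.

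**Figure D4:**
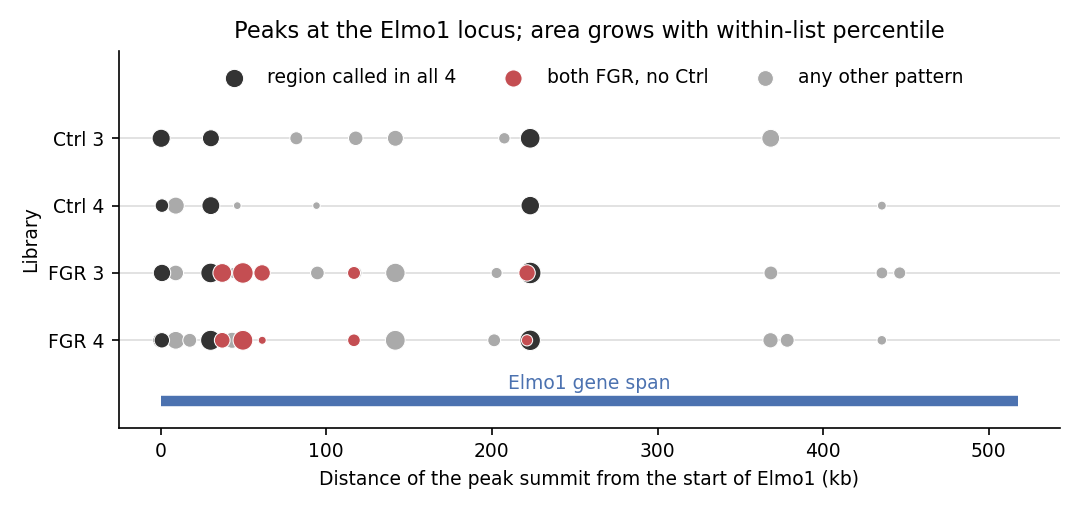
Peak summits at the Elmo1 locus in each library, by distance in kb from the start of the gene, with dot area growing with the within-list percentile of the fold. Dark dots are regions called in all 4 libraries, red dots the 5 regions called in both FGR and no Ctrl libraries, and grey dots any other pattern. The red dots lie between 37.2 and 221 kb, inside the gene.

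Asap1 and Snx29 followed with 4 FGR-only regions each. Like Elmo1, the loci in this order were named for their separated regions, whose peaks enter the counts. Their differences are therefore not independent of the naming. Asap1, which encodes an Arf GTPase-activating protein, had 11 and 8 peaks in Ctrl and 15 and 18 in FGR (log2 0.53 ± 0.20 SE, limma adjusted p = 0.47). Snx29, a sorting nexin gene, had 10 and 12 in Ctrl and 22 and 19 in FGR (0.62 ± 0.16 SE, limma adjusted p = 0.254). Srgap2, a Rac GTPase-activating protein gene, Abhd12, a lysophospholipid hydrolase gene, and Slc35c2 held 3 each. The Slc35c2 regions also lie in the locus of its neighbour Elmo2, the paralogue of Elmo1. At Srgap2 the count in FGR 4 (12) was close to the 11 in each Ctrl library, and the difference was 0.12 ± 0.18 (SE, limma adjusted p = 0.805).

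In the other direction, Dusp7, a MAP kinase phosphatase gene on chromosome 9, had 4 Ctrl-only regions, 1 of them inside its neighbour Poc1a. The region at 106368784 to 106369359 had a pileup of 53 in Ctrl 3 and 174 in Ctrl 4, and that at 106370685 to 106371147 had 49 and 158. Ctrl 4 stood far above Ctrl 3 in these regions, and no peak was called there in either FGR library. The local background there was also raised, at 18.5 and 33.7 extended reads per base in the first region. Whether these calls belong to the libraries or to the mice was not tested. Tlr5, the flagellin receptor gene, had 2 Ctrl-only regions and 4 and 3 peaks in Ctrl against 1 in each FGR library (log2 -1.65 ± 0.36 SE, limma adjusted p = 0.254). Rcc2, a chromosome condensation regulator gene, had 4 peaks in each Ctrl library against 1 and 2 (-1.46 ± 0.35 SE, limma adjusted p = 0.254). Man1a2 and Rnf220 had 2 Ctrl-only regions each. These loci too were named for their separated regions, so their differences are not independent of the naming.

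Across all loci, limma called 0 of 9199 at an adjusted p under 0.05 (0.0%). At an unadjusted p under 0.05 there were 263 loci higher and 571 lower in FGR. Peaks per locus are few. On simulated Poisson counts, not divided by list length, limma recovered 0 of 200 loci changed 2-fold and 0 of 200 changed 4-fold. The simulation differs from the reported fit in that scaling and in its spread, so it does not measure the power of that fit. The lack of calls does not show that loci were alike. Some other settings gave calls, up to 296 higher and 125 lower without division by list length, but in 417 of those 421 loci both libraries of each group had identical counts.

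The strongest separated regions away from genes' ends were also listed by percentile. For FGR the leading region lay between genes on chromosome 16 (55663938 to 55664259), 147116 bp from Nfkbiz, an atypical NF-κB regulator gene, with pileups of 37 and 34 at the 90.5th and 90.8th percentiles. A region inside Zbtb20, a zinc finger repressor gene (chromosome 16, 42896956 to 42897466), had 32 and 33. An intergenic region on chromosome 10 (19547883 to 19548369), at a distance of 43580 bp from the interferon gamma receptor gene Ifngr1, had 34 and 30. The others were nearest to or inside 1500009L16Rik, Nupl2, Sox4, Kctd12 and Osbp, with pileups of 30 to 46. For Ctrl the leading regions were weaker, with pileups of 24 to 33. They lay 2751 bp from Zfp382, 11768 bp from the semaphorin receptor gene Nrp2, inside Tsnaxip1, inside the potassium channel gene Kcnj6, near Gm815, inside the phosphoinositide phosphatase gene Inpp4b, and near Zfp521 and Plrg1.

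Replicates 1 and 2 were not used to define these regions. All 8 of the leading FGR regions were also called in FGR 1 and FGR 2, and 1 of them in Ctrl 1. Of the 8 leading Ctrl regions, 1 (inside Inpp4b) was called in Ctrl 1 and Ctrl 2, and 3 were called in FGR 1 or FGR 2. Of all 1620 FGR-only regions, 57.3% were called in FGR 1 and 51.4% in FGR 2, against 9.57% in Ctrl 1 and 1.67% in Ctrl 2. Of the 659 Ctrl-only regions, 29.9% were called in Ctrl 1 and 8.65% in Ctrl 2, and 26.6% and 22.2% in FGR 1 and 2. These libraries may not be independent of replicates 3 and 4. FGR 1 shared 9.14% of summits to the base with FGR 3, and FGR 2 shared 7.61% with FGR 4, against 1.86% to 2.14% between any pair of the 4 libraries described here. Ctrl 1 and Ctrl 3 shared 0.00704%, and Ctrl 2 and Ctrl 4 0.0394%, with median summit distances of 139 and 138 bp. The Ctrl lists of replicates 1 and 2 were also shorter, with 16111 and 10862 peaks, so absence from them means less.

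Within the 13772 regions called in all 4 libraries, order could be compared without regard to list length. Each library's regions were ranked by the deposited fold from 0 to 100, so a difference is of order within a library and not of absolute openness. All ranks of FGR lay above those of Ctrl in 2544 regions (18.5%) and below in 2631 (19.1%). Ranks are centred within a library, so lower ranks in a class entail higher ranks elsewhere, and the classes give a single contrast. At gene ends 14.1% of regions ranked higher and 22.9% lower in FGR, while inside genes 23.8% ranked higher and 14.9% lower, and between genes 24.7% and 13.5%. The median rank of gene-end regions was 58.0 and 61.5 in Ctrl 3 and 4 and 56.2 and 55.4 in FGR 3 and 4. That of other regions was 40.9 and 37.0 in Ctrl and 43.2 and 44.3 in FGR. Both FGR libraries lay on the same side of both Ctrl libraries (exact permutation p = 0.333), but Ctrl 3 was closer to FGR 3 than to Ctrl 4. The background coverage of Ctrl 4, at 6.05, was the highest of the 4, and its part in the result was not tested.

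**Figure D5:**
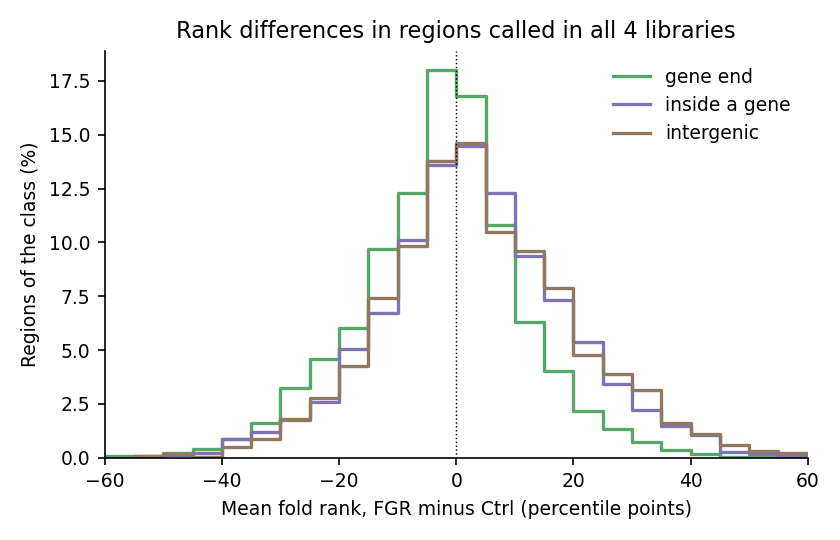
Distribution of the difference in mean fold rank, FGR minus Ctrl, in percentile points, over regions called in all 4 libraries, as the percent of each class per 5-point bin. Gene-end regions (green) have a median of -1.79, and regions inside genes (purple) and between genes (brown) medians of 2.55 and 2.65.

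The regions with the widest gap that ranked higher in FGR all lay away from gene ends. A region near C87436 on chromosome 6 had ranks of 10.3 and 13.8 in Ctrl and 73.1 and 83.7 in FGR, with pileups of 24 and 30 against 49 and 57. A region 17458 bp from Pik3ap1, an adaptor gene that links Toll-like receptors to PI3 kinase, had ranks of 16.5 and 26.7 against 84.8 and 87.1. A region 72535 bp from Tab2, an activator of the kinase TAK1, had 18 and 12.1 against 82.3 and 72.7. The others lay inside the focal adhesion gene Tns3, the exportin gene Xpo6 and Dram2. Of the 6 widest gaps in the other direction, 5 were at gene ends. They were at the aminopeptidase gene Aopep, the deubiquitinase genes Otud3 and Usp24, Ankrd9 and the lysosomal channel gene Mcoln1, and the sixth lay inside Dis3l2, an exoribonuclease gene. Dis3l2 had ranks of 89.8 and 91.3 in Ctrl and 23.3 and 27.6 in FGR, with pileups of 36 and 42 against 21 in both. Mcoln1 had 71.4 and 71.3 against 14.9 and 23.4.

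No single region passed the test of rank. With limma on normal scores of the rank, 0 of 13772 regions had an adjusted p under 0.05 (0.0%), and the smallest was 0.599. At an unadjusted p under 0.05, 538 regions ranked higher and 480 lower. On simulated data this test recovered 4 of 200 regions shifted by 1 unit of the normal score and 175 of 200 shifted by 2 units, with 9 false calls. The simulation gave every region the same spread, so it does not measure the power of the reported test. By rank the FGR pair was somewhat more alike than libraries of different groups, while the Ctrl pair was close to the between-group pairs. Across regions, Pearson's r was 0.756 between Ctrl 3 and 4, 0.788 between FGR 3 and 4, and 0.728 to 0.753 between groups, where regions are not independent replicates. By bases shared over bases covered by either list, the order was less clear, at 0.497 for the Ctrl pair, 0.474 for the FGR pair and 0.459 to 0.482 between groups.

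By rank, the lists were described by the same counts, beside 18.5% higher and 19.1% lower over all 13772 regions, and were not tested. Of 44 regions called in all 4 libraries in microglial transcription factor loci, 13 ranked higher and 10 lower in FGR, with a median difference of 4.49 percentile points. In glucocorticoid response loci it was 15 higher and 3 lower of 33, with a median of 5.38, and in disease-associated microglia loci 11 and 3 of 30, with a median of 1.81. TGF-beta signalling loci had 5 higher and 9 lower of 32, with a median of -4.89. Rank and presence did not always go together. Homeostatic microglia loci had 14 higher and 8 lower of 49, but a median of -0.254. Immediate early and AP-1 loci, with more Ctrl-only than FGR-only regions, had 21 higher and 10 lower of 70, with a median of 0.99. The remaining lists are not given here. The median over all regions was -0.119.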

How the data were processed

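The data are peak lists, 1 per library, for the hippocampal microglia of replicates 3 and 4, 2 Ctrl and 2 FGR libraries. Peaks were on build mm10, and the tools named in the submitters' processing notes, without settings, were MACS2 2.2.7.1, SAMtools 1.3.1, Bowtie2 2.4.5, DiffBind 3.12.0 and Trim Galore 0.6.5. Whether reads were shifted, deduplicated or filtered against a blacklist was not given in those notes. The deposited score is a display value and was not used. The deposited fold is a ratio of summit pileup to local background and was used, as the authors' own value, to rank peaks within a list. The authors' −log10 p and −log10 q columns express the excess over that background and served to recover pileups and to filter. Fold and −log10 p gave a whole pileup for 100.0% of peaks (tolerance 0.001). Read totals were not used here, so background coverage, the lowest local background of a list, stands for depth.

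Genes are 21883 protein-coding RefSeq genes of GRCm38.p6 (the mm10 assembly), and promoters the 250 bases before 21262 starts. Exons were not used here. The members and the 27 gene lists (441 of 442 symbols matched) were chosen with earlier results of these data known. Values per library were compared by an exact two-sided permutation test. Peaks per locus (log2 of peaks + 0.5 per 10000, mean of at least 2 peaks, with trend) and normal scores of fold rank were tested with limma 3.58.1 in R 4.3.3, with Benjamini-Hochberg adjustment over all loci or regions. The rest was done with scipy 1.17.1, pandas 2.3.3, numpy 2.4.6 and matplotlib 3.10.9 in Python 3.11.15. Scripts were tested on simulated data.

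Named genes are 12 microglia genes, listed genes with a gene-end peak in 2 of 2 against 0 of 2 libraries, up to 8 further genes and 8 distal regions per direction by the lower percentile, up to 6 loci by the number of separated regions, and up to 6 regions per direction by the gap in rank. Predicted gene models were skipped, except among distal regions, and some genes that the rule names are not reported here. Alternatives were a stricter −log10 q, equal-length lists, other windows, scalings and pseudocounts, a replicate block and leaving out each library.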

Additional observations from a re-analysis of the deposited data

How the results depend on the processing

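The difference in peak number (2796 to 6051) and in gene-end share (-7.48 to -4.72 percentage points) kept its direction whichever library was left out, and the latter was -3.16 with equal-length lists. Counts by presence moved. FGR-only regions numbered 1013 with equal-length lists and 2868 to 9944 without 1 library, and Ctrl-only regions 1334 to 5270 without 1 library. Genes with an FGR-only gene-end peak numbered 85 with equal-length lists and 334 to 709 without 1 library, and Ctrl-only genes 261 and 362 to 606. A left-out library loosens the rule, so these counts could not fall. The FGR share of separated regions was 35.2% and 42.0% without Ctrl 3 and Ctrl 4, and 82.0% and 88.2% without FGR 3 and FGR 4. The rule then asks for a single library in the group that lost 1, which favours that group, so these shares give no direction. With all 4 libraries the share was 71.1% with −log10 q of at least 5. It was 67.3% with a union of summits extended by 100 bp, and 53.1% with equal-length lists.

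For peaks per locus, limma called 22 loci higher and 1 lower in FGR with −log10 q of at least 5, 188 and 232 with equal-length lists, 296 and 125 without division by list length, 23 and 31 with a pseudocount of 1, and 7 to 16 and 0 to 43 without 1 library. With no filter on low values it called 0 of 16735 loci, with 395 higher and 724 lower at an unadjusted p under 0.05. Of the 420 loci called with equal-length lists, 419 had identical counts within both groups. Elmo1 stayed higher in FGR in every setting run, but its limma adjusted p reached 0.543. The fits without 1 library assume that the lone library varies like the other group. In them the spread comes from the remaining pair alone, and the pair was tied at Elmo1 in FGR and at Rcc2 in Ctrl. Calls by locus from these fits are therefore not given. The Srgap2 difference ran from -0.043 without FGR 3 to 0.27 without FGR 4, and that of Rnf220 was 0.12 without division by list length. The rank test called 0 regions in all 9 other settings (0 without any 1 library).

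The replicate block gave 19 loci higher and 13 lower, and 0 regions by rank. Same-numbered libraries did not deviate together (correlation -0.019 over loci, -0.030 over regions), so the numbers do not pair them. Among values of gene-end peaks at named genes under other settings, 54 moved and 324 did not. With 2 libraries per group and weak peaks, a lack of calls does not show that loci or regions were alike. Sampling of animals cannot be told apart from technical spread.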

Other observations

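Regions called in a single library were mostly distal in each library. They numbered 3346 in Ctrl 3, 4553 in Ctrl 4, 8246 in FGR 3 and 5337 in FGR 4, and 82.3% to 88.4% of them lay over 1 kb from a gene end. FGR 3 thus had the most regions of its own.

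The locus of Flt1, a vascular growth factor receptor gene on the endothelial list, held 1 and 3 peaks in Ctrl and 8 and 6 in FGR without a region of the FGR-only kind. The locus of Myrf, on the oligodendrocyte list, held 5 in each Ctrl library and 2 in each FGR library. Both genes were picked after their values were seen.

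Chromatin regulator loci held 7 FGR-only (4.90%) and 0 Ctrl-only regions among 143 with the deposited lists, and 5 (4.10%) and 4 (3.28%) among 122 with equal-length lists. The FGR-only regions lay in the loci of Hdac9 (2), Hdac1, Hdac7, Tet3, Kdm6b and the acetyltransferase gene Ep300, whose region stood at the 68.3rd and 62.7th percentiles. Those counted for Hdac1 and Kdm6b lay in the 20 kb flank, inside the nearby genes Lck and Dnah2.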
